A study of Homo sapiens with 12 samples.

Results

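ATF4 and the unfolded protein response were followed through 40 genes, taken by symbol from the 57773 genes of the expression table. They fall into an amino acid arm of 24 genes (ATF4, the genes it controls and cytosolic aminoacyl-tRNA synthetases) and an endoplasmic reticulum arm of 16 genes (the stress sensors, chaperones and degradation factors of that compartment). All 40 passed the filter on low counts and were tested. PolyA RNA had been sequenced from U87, an established human glioblastoma cell line, in 6 groups of 2 libraries, 12 in all. Resistant cells, a derivative labelled as resistant to JQ1, had received 1000 nM dBET6, 1000 nM JQ1 or DMSO, the solvent control, for 24 h. Parental cells had received 1000 nM dBET6, 1000 nM JQ1 or DMSO for 24 h. All groups shared a serum-containing medium. The labels do not say how the resistant line was made, whether it is a clone, whether JQ1 was kept in its medium, or whether the replicates were separate cultures, so p-values reflect only how much these libraries varied.

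JQ1 occupies the acetyl-lysine pockets of BET proteins, which help RNA polymerase II to elongate transcripts. dBET6 carries a similar BET-binding group linked to a group that binds cereblon, a ubiquitin ligase subunit, so that bound BET proteins are degraded. ATF4 is a transcription factor translated preferentially when kinases phosphorylate the initiation factor eIF2, as happens when amino acids run short or unfolded protein collects in the endoplasmic reticulum. It turns on genes for amino acid synthesis, uptake and charging onto tRNA, with the death-associated factor DDIT3 (CHOP) downstream. In the endoplasmic reticulum a set of sensors watches protein folding. ERN1 (IRE1) cuts XBP1 mRNA into the form that encodes its active factor, EIF2AK3 (PERK) phosphorylates eIF2, and ATF6 is released as a factor that turns on chaperone genes such as HSPA5 (BiP). Levels below are RNA levels only, while ATF4 and these sensors are also controlled at the protein level, which was not analysed here.

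Regulatory sequences are shown for a pair of genes from each arm that carry the same element and moved in opposite directions with dBET6. The windows run from 250 bases before to 50 bases after the start site and come from RefSeq (GRCh38.p14, strand of the gene). Capitals in HSPA5 (chr9:125241294-125241593, minus strand), which rose, and XBP1 (chr22:28800520-28800819, minus strand), which fell, mark an ER stress element, searched as CCAAT, 9 bases of any kind and CCACG. Capitals in ASNS (chr7:97872359-97872658, minus strand), which rose, and SLC7A1 (chr13:29595639-29595938, minus strand), which fell, mark an amino acid response element, searched as TGATGNAA, the core bound by ATF4 with a C/EBP partner.
HSPA5: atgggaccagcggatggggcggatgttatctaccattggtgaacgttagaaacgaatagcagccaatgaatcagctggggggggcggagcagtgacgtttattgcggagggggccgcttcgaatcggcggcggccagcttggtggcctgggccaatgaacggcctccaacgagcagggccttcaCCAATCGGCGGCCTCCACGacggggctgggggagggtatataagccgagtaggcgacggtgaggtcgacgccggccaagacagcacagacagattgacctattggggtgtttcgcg
XBP1: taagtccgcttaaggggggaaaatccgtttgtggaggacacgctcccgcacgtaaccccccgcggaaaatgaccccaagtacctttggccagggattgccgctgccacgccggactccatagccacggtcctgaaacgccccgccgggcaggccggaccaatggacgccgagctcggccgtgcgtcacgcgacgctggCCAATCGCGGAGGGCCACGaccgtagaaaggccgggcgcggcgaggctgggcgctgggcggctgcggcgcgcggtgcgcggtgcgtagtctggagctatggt
ASNS: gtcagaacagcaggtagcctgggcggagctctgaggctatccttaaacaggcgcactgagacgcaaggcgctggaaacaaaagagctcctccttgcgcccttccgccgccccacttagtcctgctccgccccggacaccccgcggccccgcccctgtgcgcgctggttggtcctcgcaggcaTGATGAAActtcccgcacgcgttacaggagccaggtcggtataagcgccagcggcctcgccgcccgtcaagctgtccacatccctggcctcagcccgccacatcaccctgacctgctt
SLC7A1: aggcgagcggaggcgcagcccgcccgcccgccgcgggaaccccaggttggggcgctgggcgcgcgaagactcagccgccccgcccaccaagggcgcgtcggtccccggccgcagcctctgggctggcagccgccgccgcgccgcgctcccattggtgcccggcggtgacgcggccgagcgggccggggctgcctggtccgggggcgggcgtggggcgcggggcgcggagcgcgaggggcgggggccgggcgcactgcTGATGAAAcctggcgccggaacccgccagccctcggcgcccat

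On both strands, the ER stress element was present in the windows of 6 of 16 members of the endoplasmic reticulum arm (HSPA5, HSP90B1, XBP1, PDIA6, CALR and CANX) and of 0 of 22 matched members of the amino acid arm, against 25 of all 27305 genes with a window (0.0916%). HSP90B1 had it on each strand. The amino acid response core was present in 9 of 22 members of the amino acid arm (CHAC1, ASNS, SLC3A2, SLC7A1, SLC1A5, CARS, GARS, AARS and MARS) and in 1 of 16 of the endoplasmic reticulum arm (HERPUD1), against 4.46% of all genes. The XBP1 element TGACGTGG was present in CARS and in no member of the endoplasmic reticulum arm (0.927% of all genes). PSPH and SHMT2 had no entry in the window table. A match describes letters in the window and is not a bound site.

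Libraries held 24732177 to 40388589 estimated counts. The 50 most abundant genes took 25.8% to 31% of counts in the 4 dBET6 libraries, against 12.4% to 18.5% in the other 8, and the 13 mitochondrially encoded mRNAs took 3.19% to 3.94%, against 1.46% to 2.70%. All 8 markers of mesenchymal glioma were expressed in every group, with summed levels of 12150 to 20010 FPKM with dBET6, 6293 to 7187 FPKM with JQ1 and 4460 to 5556 FPKM with DMSO. The 6 astrocyte markers summed to 5.78 to 12 FPKM with dBET6, 7.82 to 10.0 FPKM with JQ1 and 21.1 to 25.1 FPKM (resistant) or 13.2 to 13.8 FPKM (parental) with DMSO, and the 6 immune markers to 13.4 to 18.6 FPKM with dBET6, 0.999 to 3.14 FPKM with JQ1 and 6.61 to 13.7 FPKM with DMSO. Their part in the results was not tested. In bulk RNA, fewer cells of a type and less RNA per cell cannot be told apart. Fold changes below are set to the typical gene of each library by TMM scaling, so that the median of all 19093 genes tested lay near 0 on the log2 scale. Scaled instead to the mitochondrially encoded mRNAs, that median lay at -2.12 in resistant and -1.78 in parental cells with dBET6, and -0.56 and -0.28 with JQ1. Scaled to total counts, it lay at -1.14 and -0.65 with dBET6, and -0.17 and -0.10 with JQ1. "Rose" and "fell" therefore mean relative to other genes. Levels are deposited FPKM, given for replicates 1 and 2 in that order. They are per length and carry a factor for each library, so that their sum over all genes was 2293908 and 2298108 in resistant and 1738015 and 1711308 in parental dBET6 libraries, 757817 to 812174 with JQ1 and 649818 to 685757 with DMSO. A level is therefore not a share of its library, and each statement below that libraries overlap or do not is on this deposited scale. Divided by that sum, the levels of 1 of 16 genes of the endoplasmic reticulum arm (ERN1) and 3 of 24 of the amino acid arm (DDIT3, PHGDH and PPP1R15A) lay above DMSO in both resistant dBET6 libraries, and 15 and 21 lay below. In parental dBET6 libraries HSPA5, HERPUD1, SLC3A2 and PPP1R15A lay above DMSO as shares, and 12 and 20 genes of the arms lay below. Changes are log2 fold changes ± SE from edgeR's quasi-likelihood test on gene counts, with p-values adjusted over all genes tested and a threshold of 0.05.

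**Figure D1:**
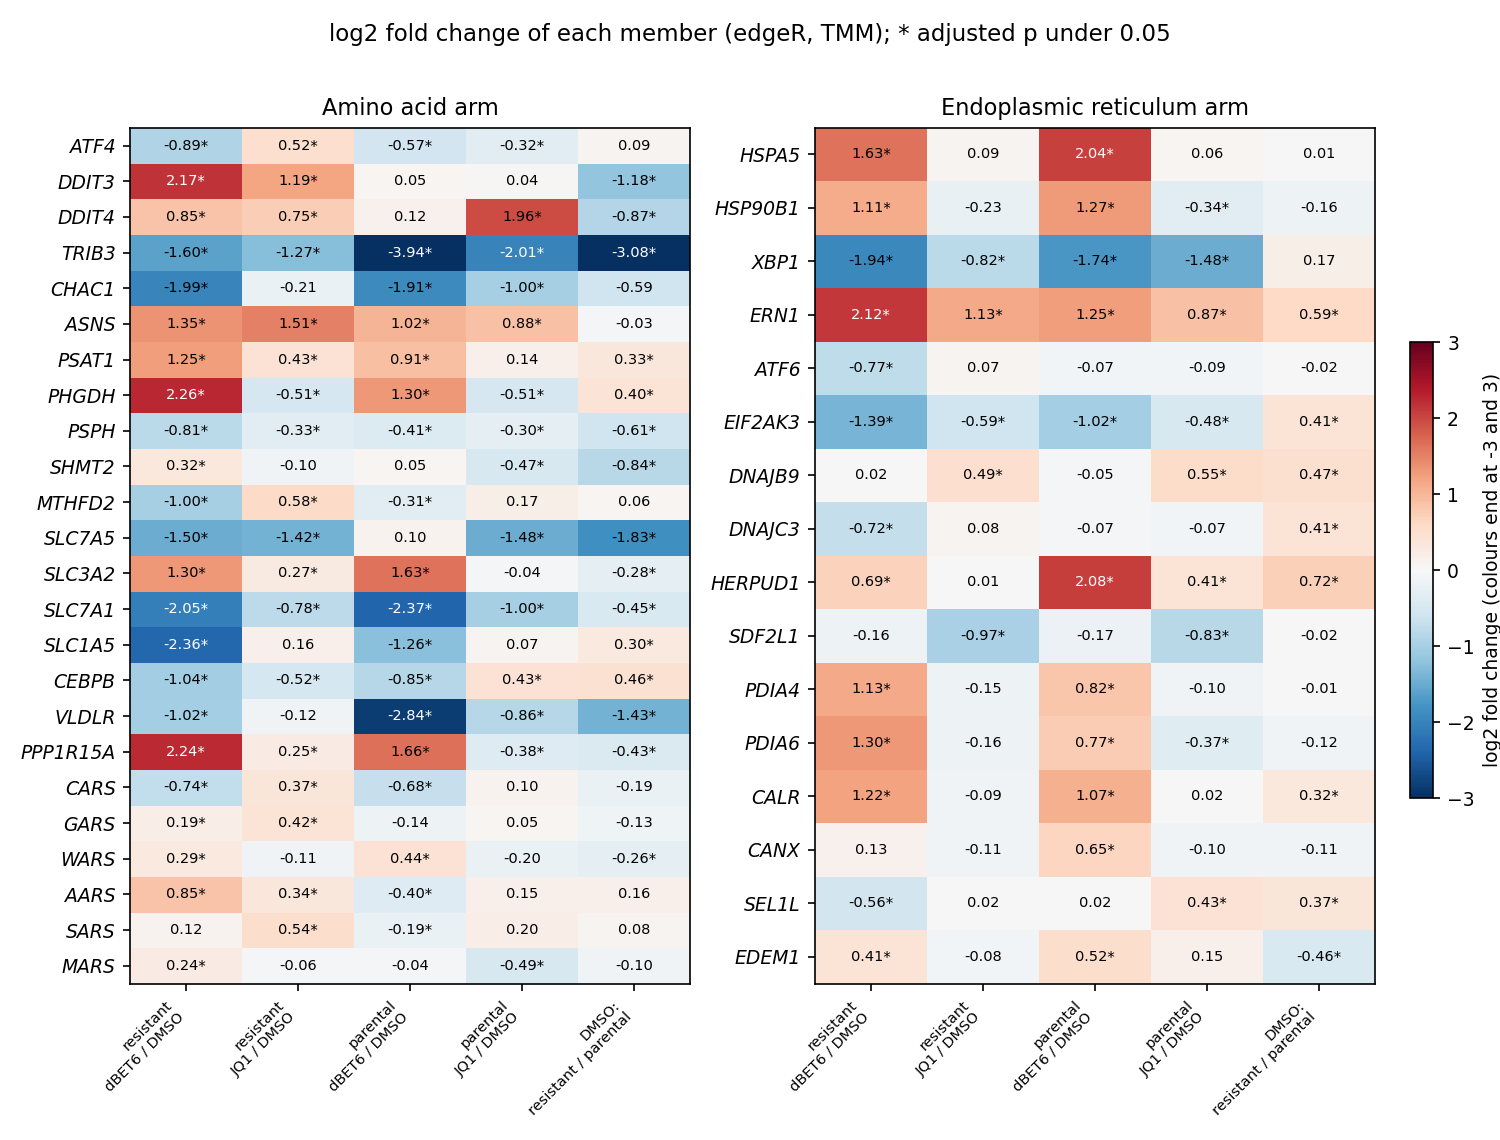
Log2 fold change (edgeR, TMM scaling) of the 24 genes of the amino acid arm and the 16 of the endoplasmic reticulum arm in rows, with resistant dBET6, resistant JQ1, parental dBET6 and parental JQ1 against their own DMSO libraries and resistant against parental DMSO libraries in columns. An asterisk marks an adjusted p under 0.05. ASNS and ERN1 are red and starred in all 4 compound columns, and TRIB3, PSPH, SLC7A1, XBP1 and EIF2AK3 are blue and starred in all 4. Scaled to mitochondrially encoded mRNA, none of the 40 passed as higher with dBET6.

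With dBET6, the chaperones HSPA5, HSP90B1 and CALR and the disulfide isomerases PDIA4 and PDIA6 rose relative to other genes in both lines, while the mRNAs of XBP1 and of the sensor PERK fell. The chaperone CANX passed in parental cells, and the J-domain proteins DNAJB9 and DNAJC3 and the cofactor SDF2L1 passed as higher in neither line. In resistant cells 8 of the 16 genes of the endoplasmic reticulum arm rose and 5 fell, where 35.7% and 39.5% of all genes tested did. In parental cells 9 rose and 2 fell, where 37% and 39.3% of all genes did. The median log2 fold change of the arm was 0.27 in resistant and 0.58 in parental cells, against -0.062 and -0.015 over all genes. With total counts as the scale, 3 rose and 10 fell in resistant cells and 6 rose and 7 fell in parental cells, and scaled to mitochondrially encoded mRNA none rose, while 15 and 14 fell.

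HSPA5, the main chaperone of the lumen, which also keeps the sensors inactive while it is bound to them, had the largest rise among the chaperones of the arm in both lines. Resistant cells had 500.4 and 537 FPKM with dBET6, against 164 and 162 FPKM with DMSO. Parental cells had 700.4 and 648 FPKM with dBET6, against 168 and 162 FPKM with DMSO. All 4 dBET6 libraries lay above all DMSO libraries on this scale. Set to an equal sum of 1000000 in every library, HSPA5 stood at 218 and 234 with dBET6, against 253 and 244 with DMSO in resistant cells, and at 403 and 379, against 249.7 and 237, in parental cells, so that the order in resistant cells turned. Its log2 fold change was 1.63 ± 0.087 (adjusted p = 1.23e-15) in resistant and 2.04 ± 0.088 (adjusted p = 2.00e-17) in parental cells. Scaled to total counts it was 0.55 and 1.40, and scaled to mitochondrially encoded mRNA it was -0.44 (adjusted p = 0.0384) and 0.27 (adjusted p = 0.210), so that the direction in resistant cells turned.

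The other abundant folding factors followed. HSP90B1 (GRP94), the HSP90 of the lumen, had 492 and 541 FPKM with dBET6 in resistant cells, against 239 and 232 FPKM with DMSO, a log2 fold change of 1.11 ± 0.099. In parental cells it had 627 and 636 FPKM with dBET6, against 289 and 245 FPKM with DMSO (1.27 ± 0.099, adjusted p = 4.82e-12). CALR (calreticulin), a lectin chaperone that binds calcium and glycoproteins, was the most abundant member in every library, with 2198 and 2374 FPKM with dBET6, against 971 and 985 FPKM with DMSO in resistant cells (1.22 ± 0.087). In parental cells CALR had 1662 and 1586 FPKM with dBET6, against 783 and 788 FPKM with DMSO (1.07 ± 0.087). The disulfide isomerases, which form and reshuffle disulfide bonds, also rose. PDIA6 had 262 and 303 FPKM with dBET6, against 113 and 109.7 FPKM with DMSO in resistant cells (1.30 ± 0.099), and 218 and 198 FPKM, against 133 and 114 FPKM, in parental cells (0.77 ± 0.098). PDIA4 had 186 and 206 FPKM with dBET6, against 89.6 and 88.8 FPKM with DMSO in resistant cells (1.13 ± 0.083), and 157 and 153 FPKM, against 87.8 and 91.8 FPKM, in parental cells (0.82 ± 0.082). For all 4 of these genes every dBET6 library of a line lay above every DMSO library of that line in FPKM. As shares of the library sum, HSP90B1, CALR, PDIA6 and PDIA4 lay below DMSO in resistant cells, and CALR, PDIA6 and PDIA4 in parental cells. With mitochondrially encoded mRNA as the scale, the changes of HSP90B1, CALR, PDIA6 and PDIA4 turned to -0.95, -0.85, -0.77 and -0.93 in resistant cells and to -0.49, -0.70, -0.99 and -0.95 in parental cells.

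CANX (calnexin), the membrane-bound partner of calreticulin, depended on the measure. It had 257 and 265 FPKM with dBET6, against 179 and 171 FPKM with DMSO in resistant cells, and 360.1 and 310.1 FPKM, against 226 and 202 FPKM, in parental cells. On gene counts its log2 fold change was 0.13 ± 0.087 (adjusted p = 0.179) in resistant and 0.65 ± 0.088 in parental cells, while limma on log2(FPKM + 1) gave 0.58 (adjusted p = 4.4e-04) in resistant cells. Its counts were rebuilt to 0.847 of the deposited level, so its change is less certain than its SE says.

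**Figure D2:**
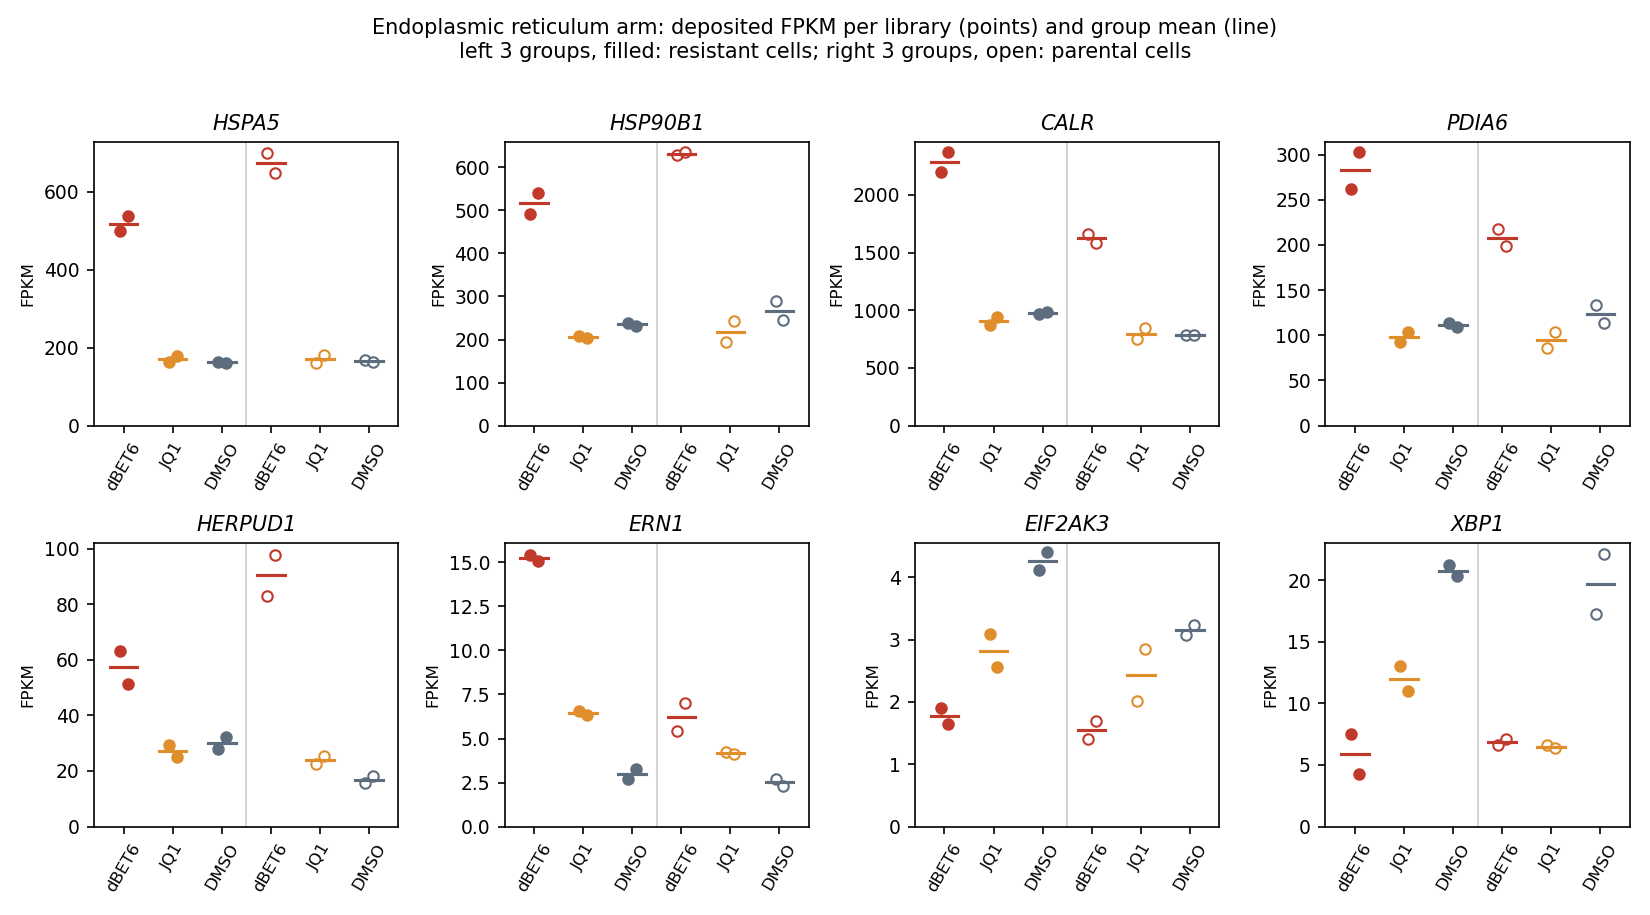
Deposited FPKM of 8 genes of the endoplasmic reticulum arm in each library (points) with the mean of each group of 2 (lines), resistant cells filled on the left and parental cells open on the right, each in the order dBET6, JQ1, DMSO. HSPA5 reaches 500.4 and 537 FPKM in the resistant and 700.4 and 648 FPKM in the parental dBET6 libraries, and XBP1 and EIF2AK3 lie lower with either compound than with DMSO. The FPKM are the authors' and hold a factor per library.

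Among the degradation factors, HERPUD1, a membrane scaffold of the ubiquitin ligase complex that removes misfolded protein, had the largest rise of the arm in parental cells. It had 82.9 and 97.9 FPKM with dBET6, against 15.8 and 18.0 FPKM with DMSO, a log2 fold change of 2.08 ± 0.087 (adjusted p = 1.06e-17). Resistant cells had 63.1 and 51.5 FPKM with dBET6, against 27.9 and 32.4 FPKM with DMSO (0.69 ± 0.086, adjusted p = 3.65e-08). The dBET6 and DMSO libraries did not overlap in either line, but scaled to total counts the change in resistant cells was -0.38. EDEM1, which hands misfolded glycoproteins to this route, had 19.4 and 16.8 FPKM with dBET6, against 13.1 and 13.0 FPKM with DMSO in resistant cells (0.41 ± 0.084), and 29.4 and 26.3 FPKM, against 23.3 and 20.9 FPKM, in parental cells (0.52 ± 0.082). With total counts as the scale these changes were -0.66 and -0.12. SEL1L, the adaptor of the HRD1 ubiquitin ligase, had 56.9 and 57.0 FPKM with dBET6, against 51.7 and 56.1 FPKM with DMSO in resistant cells, and 60.3 and 54.1 FPKM, against 49.0 and 46.4 FPKM, in parental cells. Its gene counts gave -0.56 ± 0.084 (adjusted p = 1.01e-06) in resistant and 0.017 ± 0.083 (adjusted p = 0.861) in parental cells, whereas the FPKM, which correct for the length of the isoforms used, gave 0.079 (adjusted p = 0.419) in resistant cells.

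The sensors moved apart. ERN1 (IRE1) rose with dBET6, EIF2AK3 (PERK) fell, and ATF6 fell in resistant cells. ERN1 had 15.4 and 15.1 FPKM with dBET6, against 2.70 and 3.26 FPKM with DMSO in resistant cells (2.12 ± 0.11, adjusted p = 2.47e-16), and 5.42 and 7.01 FPKM, against 2.72 and 2.32 FPKM, in parental cells (1.25 ± 0.11). EIF2AK3 had 1.90 and 1.65 FPKM with dBET6, against 4.12 and 4.4 FPKM with DMSO in resistant cells (-1.39 ± 0.14, adjusted p = 5.89e-10), and 1.41 and 1.69 FPKM, against 3.08 and 3.23 FPKM, in parental cells (-1.02 ± 0.14). ATF6 had 4.43 and 4.75 FPKM with dBET6, against 7.85 and 7.26 FPKM with DMSO in resistant cells (-0.77 ± 0.10). The ATF6 libraries overlapped in parental cells, with 7.07 and 7.73 FPKM with dBET6, against 8.41 and 7.19 FPKM with DMSO (-0.074 ± 0.096, adjusted p = 0.494). Scaled to total counts, ATF6 passed as lower in parental cells too (-0.71, adjusted p = 2.07e-06). Scaled to mitochondrially encoded mRNA it also did (-1.83, adjusted p = 1.93e-17). ERN1 and EIF2AK3 libraries did not overlap in either line. On the scale of mitochondrially encoded mRNA, ERN1 changed by 0.055 in resistant and -0.52 in parental cells, so its direction turned in parental cells, while EIF2AK3 kept its fall under every scaling used.

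The HSPA5 partners split with TMM. DNAJC3 (p58IPK), a J-domain partner of HSPA5, had 11.4 and 11.2 FPKM with dBET6, against 16.1 and 14.7 FPKM with DMSO in resistant cells (-0.72 ± 0.099), and 13.0 and 14.5 FPKM, against 13.8 and 11.3 FPKM, in parental cells (-0.066 ± 0.097, adjusted p = 0.545). DNAJB9 (ERdj4), another J-domain partner, had 9.04 and 8.46 FPKM with dBET6, against 5.46 and 6.68 FPKM with DMSO in resistant cells, and 6.67 and 6.88 FPKM, against 4.02 and 6.40 FPKM, in parental cells. Its gene counts gave 0.016 ± 0.15 (adjusted p = 0.926) and -0.053 ± 0.15 (adjusted p = 0.762), while limma on log2(FPKM + 1) gave 0.47 (adjusted p = 0.0318) and 0.35 (adjusted p = 0.0925). SDF2L1, which assists HSPA5 in the lumen, had 36.6 and 32.8 FPKM with dBET6, against 40.4 and 38.9 FPKM with DMSO in resistant cells (-0.16 ± 0.11, adjusted p = 0.177), and 36.6 and 32.0 FPKM, against 39.0 and 40.7 FPKM, in parental cells (-0.17 ± 0.10, adjusted p = 0.134). DNAJC3 fell in resistant cells, and the other values in this group did not pass the test on counts with TMM. Scaled to total counts, DNAJC3, DNAJB9 and SDF2L1 passed as lower in resistant (-1.80, -1.06 and -1.23) and parental cells (-0.70, -0.69 and -0.81). Scaled to mitochondrially encoded mRNA they also passed as lower in resistant (-2.80, -2.05 and -2.23) and parental cells (-1.82, -1.81 and -1.95).

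XBP1, the target of ERN1 and a factor for degradation and secretory genes, fell with both compounds. Resistant cells had 7.52 and 4.24 FPKM with dBET6, 13.0 and 11 FPKM with JQ1 and 21.2 and 20.3 FPKM with DMSO. Parental cells had 6.60 and 7.12 FPKM with dBET6, 6.59 and 6.41 FPKM with JQ1 and 17.2 and 22.1 FPKM with DMSO. Every compound library lay below every DMSO library of its line. The log2 fold change with dBET6 was -1.94 ± 0.12 (adjusted p = 2.79e-14) in resistant and -1.74 ± 0.12 (adjusted p = 1.66e-13) in parental cells.

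The active form of XBP1 arises when ERN1 removes 26 bases from its mRNA, which shifts the reading frame. The shorter annotated transcript (ENST00000344347, 1131 bases) lacks 26 bases of the longer (ENST00000216037, 1850 bases), shown in capitals in the stretch of the longer transcript around them (GENCODE 29, chromosome 22). The segment can be placed at 7 equivalent starts, of which the placement between G and CAG at both ends is drawn. Besides these 26 bases, the shorter transcript lacks further bases of the longer, outside the part they share.
XBP1 removed segment: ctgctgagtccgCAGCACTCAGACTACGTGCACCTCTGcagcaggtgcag

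The estimated counts of the processed form were 11.4 to 80.0 in the 8 JQ1 and DMSO libraries, or 3.07% to 7.19% of XBP1 counts, and 0 in each of the 4 dBET6 libraries. XBP1 held only 107 to 161 counts in those 4 libraries, where a count of 0 allows a share of up to 1.86% to 2.80% (3 counts per library, counting error only). kallisto divides reads between transcripts that share much of their sequence, so an estimate of 0 is not an absence. Reads from bases that only the longer transcript has cannot be given to the shorter. The share is therefore not the fraction of XBP1 mRNA that ERN1 had processed. Over both lines the share averaged 0% with dBET6 and 5.71% with DMSO (difference -5.71 points, n = 4 each, two-sided exact permutation test p = 0.0286, the smallest that 4 against 4 allows, and 0.0857 adjusted over 3 comparisons). It averaged 5.4% with JQ1 and 5.71% with DMSO (difference -0.312 points, exact permutation test p = 0.829). Over DMSO and JQ1 libraries it averaged 6.30% in resistant and 4.81% in parental cells (difference 1.5 points, exact permutation test p = 0.257, adjusted 0.386). With this number of libraries and 3 comparisons, a single difference cannot pass the threshold after adjustment.

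With JQ1, which shares its DMSO libraries with the dBET6 comparison of each line, HSPA5, HSP90B1, CALR, CANX, PDIA4 and PDIA6 did not pass as higher in either line, while the J-domain protein DNAJB9 rose in both. In resistant cells 2 of 16 genes rose and 3 fell (20.8% and 23.1% of all genes), and in parental cells 4 rose and 5 fell (22.8% and 26.1% of all genes). HSPA5 had 163 and 178 FPKM with JQ1, against 164 and 162 FPKM with DMSO in resistant cells (0.089 ± 0.085, adjusted p = 0.434, interval -0.086 to 0.26), and 162 and 181 FPKM, against 168 and 162 FPKM, in parental cells (0.059 ± 0.085, adjusted p = 0.603, interval -0.12 to 0.23). HSP90B1 and PDIA6 fell in parental cells (-0.34 ± 0.098 and -0.37 ± 0.098). In resistant cells their changes were -0.23 ± 0.098 (adjusted p = 0.0595) and -0.16 ± 0.097 (adjusted p = 0.188). With total counts as the scale, HSP90B1, CALR, CANX, PDIA4 and PDIA6 passed as lower in resistant cells (-0.42, -0.29, -0.30, -0.34 and -0.36). Scaled to mitochondrially encoded mRNA, HSPA5 did so too (-0.49, adjusted p = 0.0375), while ERN1 stayed higher there (0.56). With TMM, the genes that passed in both lines were ERN1, SDF2L1, XBP1, EIF2AK3 and DNAJB9, each in the same direction. ERN1 had 6.54 and 6.36 FPKM with JQ1, against 2.70 and 3.26 FPKM with DMSO in resistant cells (1.13 ± 0.10, adjusted p = 7.29e-10), and 4.24 and 4.14 FPKM, against 2.72 and 2.32 FPKM, in parental cells (0.87 ± 0.11, adjusted p = 1.58e-07). SDF2L1 had 18.5 and 21.4 FPKM with JQ1, against 40.4 and 38.9 FPKM with DMSO in resistant cells (-0.97 ± 0.10, adjusted p = 1.39e-08), and 22.8 and 20.9 FPKM, against 39.0 and 40.7 FPKM, in parental cells (-0.83 ± 0.10, adjusted p = 1.46e-07). XBP1 changed by -0.82 ± 0.10 (adjusted p = 1.67e-07) in resistant and -1.48 ± 0.11 (adjusted p = 6.12e-12) in parental cells. ERN1, SDF2L1 and XBP1 libraries did not overlap between JQ1 and DMSO in either line. EIF2AK3 had 3.09 and 2.56 FPKM with JQ1, against 4.12 and 4.4 FPKM with DMSO in resistant cells (-0.59 ± 0.12, adjusted p = 1.85e-04), and 2.02 and 2.85 FPKM in parental cells, against 3.08 and 3.23 FPKM (-0.48 ± 0.12). DNAJB9 changed by 0.49 ± 0.13 and 0.55 ± 0.14, and HERPUD1 and SEL1L rose in parental cells (0.41 ± 0.087 and 0.43 ± 0.082). DNAJB9 no longer passed when scaled to mitochondrially encoded mRNA, at -0.085 in resistant cells (adjusted p = 0.798), where its direction turned, and 0.25 in parental cells (adjusted p = 0.435), and in resistant cells not with total counts (0.30, adjusted p = 0.0723). On the mitochondrial scale HERPUD1 and SEL1L did not pass in parental cells either (0.11 and 0.14, adjusted p = 0.717 and 0.611).

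In the amino acid arm members moved both ways with dBET6, and ATF4 mRNA itself fell in both lines. In resistant cells 12 of 24 genes rose and 11 fell, and in parental cells 6 rose and 12 fell, beside the shares of all genes given above for dBET6. The median log2 fold change of the arm was 0.15 in resistant and -0.17 in parental cells. Scaled to total counts, 5 rose and 17 fell in resistant cells and 5 rose and 19 fell in parental cells, and scaled to mitochondrially encoded mRNA none rose, while 21 and 22 fell.

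ATF4 had 41.2 and 35.5 FPKM with dBET6, against 71.4 and 68.4 FPKM with DMSO in resistant cells (-0.89 ± 0.093, adjusted p = 1.49e-09). Parental cells had 47.4 and 41.2 FPKM with dBET6, against 65.1 and 67.2 FPKM with DMSO (-0.57 ± 0.091, adjusted p = 2.69e-06). In both lines the dBET6 libraries lay below the DMSO libraries. DDIT3 differed between the lines. It had 86.6 and 99.8 FPKM with dBET6, against 19.4 and 22.2 FPKM with DMSO in resistant cells (2.17 ± 0.11, adjusted p = 1.19e-15), and 51.5 and 44.4 FPKM, against 52.9 and 42.5 FPKM, in parental cells, where the libraries overlapped (0.054 ± 0.11, adjusted p = 0.662, interval -0.17 to 0.28). Scaled to mitochondrially encoded mRNA the DDIT3 change was 0.11 in resistant and -1.72 in parental cells. DDIT3 overlaps MARS and MBD6, on the opposite strand, by 982 and 1028 bases, and the annotated gene AC022506.1, on the same strand, by 2769 bases. Strand use in the library protocol is not given, so reads from these overlaps cannot be told apart. PPP1R15A (GADD34), the phosphatase subunit that reverses eIF2 phosphorylation, had 144 and 141 FPKM with dBET6, against 29.6 and 30.9 FPKM with DMSO in resistant cells (2.24 ± 0.091, adjusted p = 3.66e-18), and 136 and 120.4 FPKM, against 39.0 and 41.9 FPKM, in parental cells (1.66 ± 0.089). DDIT4 (REDD1), which restrains mTORC1, had 18.1 and 14.0 FPKM with dBET6, against 6.93 and 10.3 FPKM with DMSO in resistant cells (0.85 ± 0.18), and 16.1 and 18.7 FPKM, against 13.8 and 17.2 FPKM, in parental cells (0.12 ± 0.17, adjusted p = 0.550). Scaled to total counts the DDIT4 change was -0.23 (adjusted p = 0.247) in resistant and -0.52 (adjusted p = 0.0126) in parental cells. Scaled to mitochondrially encoded mRNA it was -1.21 (adjusted p = 5.00e-08) and -1.66 (adjusted p = 3.41e-14). PPP1R15A libraries did not overlap in either line, and scaled to mitochondrially encoded mRNA its change was 0.17 in resistant and -0.12 in parental cells.

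Several other targets of ATF4 fell with dBET6. TRIB3, a pseudokinase that feeds back on ATF4 and DDIT3, had 0.184 and 0.352 FPKM with dBET6, against 3.09 and 3.22 FPKM with DMSO in parental cells (-3.94 ± 0.27, adjusted p = 3.28e-13), and 0.204 and 0.125 FPKM, against 0.400 and 0.312 FPKM, in resistant cells (-1.60 ± 0.41). CHAC1, an enzyme that degrades glutathione, had 0.428 and 0.0986 FPKM with dBET6, against 0.725 and 1.15 FPKM with DMSO in resistant cells (-1.99 ± 0.45), and 0.267 and 0.402 FPKM, against 1.18 and 1.34 FPKM, in parental cells (-1.91 ± 0.36, adjusted p = 3.60e-05). TRIB3, CHAC1 and VLDLR had the lowest mean FPKM of the 40 genes. VLDLR, a lipoprotein receptor, had 0.379 and 0.829 FPKM with dBET6, against 1.94 and 1.71 FPKM with DMSO in resistant cells (-1.02 ± 0.19), and 0.405 and 0.465 FPKM, against 5.15 and 5.91 FPKM, in parental cells (-2.84 ± 0.18, adjusted p = 4.85e-14). CEBPB, a partner factor of ATF4, had 88.1 and 76.6 FPKM with dBET6, against 167 and 177 FPKM with DMSO in resistant cells (-1.04 ± 0.12), and 70.8 and 62.6 FPKM, against 107 and 139 FPKM, in parental cells (-0.85 ± 0.12). For all 4 genes the dBET6 libraries lay below the DMSO libraries of the same line.

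The enzymes of amino acid synthesis split. ASNS (asparagine synthetase) and the serine pathway enzymes PHGDH and PSAT1 rose, and PSPH, the last step of serine synthesis, fell. PHGDH, the committed step, had 306 and 306 FPKM with dBET6, against 65.2 and 64.0 FPKM with DMSO in resistant cells (2.26 ± 0.095, adjusted p = 7.43e-18), and 128 and 108 FPKM, against 47.9 and 49.8 FPKM, in parental cells (1.30 ± 0.093). PSAT1, the next step, had 44.4 and 53.6 FPKM with dBET6, against 22.1 and 18.7 FPKM with DMSO in resistant cells (1.25 ± 0.10), and 30.9 and 29.8 FPKM, against 17.1 and 16 FPKM, in parental cells (0.91 ± 0.10). ASNS had 25.0 and 24.1 FPKM with dBET6, against 8.49 and 8.25 FPKM with DMSO in resistant cells (1.35 ± 0.11), and 19.4 and 21.4 FPKM, against 7.63 and 7.88 FPKM, in parental cells (1.02 ± 0.11). The libraries of these 3 genes did not overlap in either line, and scaled to mitochondrially encoded mRNA PHGDH, PSAT1 and ASNS changed by 0.19, -0.82 and -0.72 in resistant and by -0.48, -0.86 and -0.75 in parental cells. PSPH had 9.67 and 8.20 FPKM with dBET6, against 12.5 and 12.7 FPKM with DMSO in resistant cells (-0.81 ± 0.12), and 18.3 and 13.5 FPKM, against 20.5 and 19.0 FPKM, in parental cells (-0.41 ± 0.11). Of the mitochondrial one-carbon enzymes, MTHFD2 had 23.5 and 27.1 FPKM with dBET6, against 39.8 and 34.5 FPKM with DMSO in resistant cells (-1.0 ± 0.098), and 32.6 and 37.6 FPKM, against 42.5 and 40.2 FPKM, in parental cells (-0.31 ± 0.093). MTHFD2 counts were rebuilt to 0.775 of the deposited level. SHMT2, which starts that route from serine, had 98.4 and 94.4 FPKM with dBET6, against 75.9 and 68.1 FPKM with DMSO in resistant cells (0.32 ± 0.087), and 160.0 and 146 FPKM, against 137 and 137 FPKM, in parental cells (0.048 ± 0.086, adjusted p = 0.620). With TMM, MTHFD2 therefore fell in both lines, and SHMT2 rose in resistant cells. Scaled to total counts, SHMT2 passed as lower in resistant cells (-0.76, adjusted p = 6.11e-09). Scaled to mitochondrially encoded mRNA it did so too (-1.75, adjusted p = 4.81e-17). The fall of MTHFD2 in parental cells did not pass on log2(FPKM + 1) (-0.23, adjusted p = 0.0915).

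The transporters moved in different directions. SLC3A2, the shared heavy chain of several amino acid exchangers, had 162 and 157 FPKM with dBET6, against 62.3 and 60.7 FPKM with DMSO in resistant cells (1.30 ± 0.083), and 239.9 and 240.2 FPKM, against 76.5 and 75.2 FPKM, in parental cells (1.63 ± 0.083). Its light chain SLC7A5 (LAT1), which carries large neutral amino acids, had 0.624 and 0.613 FPKM with dBET6, against 1.69 and 1.75 FPKM with DMSO in resistant cells (-1.50 ± 0.17), and 7.45 and 5.59 FPKM, against 5.88 and 6.37 FPKM, in parental cells (0.10 ± 0.12, adjusted p = 0.428, interval -0.14 to 0.34). The heavy chain rose in both lines, while the light chain fell in resistant cells and overlapped its DMSO libraries in parental cells. SLC7A1, the carrier of arginine and lysine, had 4.82 and 7.47 FPKM with dBET6, against 19.7 and 16.9 FPKM with DMSO in resistant cells (-2.05 ± 0.088), and 8.19 and 7.45 FPKM, against 31.5 and 26 FPKM, in parental cells (-2.37 ± 0.086, adjusted p = 5.64e-19). SLC1A5, a carrier of glutamine and other neutral amino acids, had 15.6 and 15.8 FPKM with dBET6, against 77.0 and 75.1 FPKM with DMSO in resistant cells (-2.36 ± 0.099, adjusted p = 7.37e-18), and 28.1 and 24.1 FPKM, against 63.3 and 63.8 FPKM, in parental cells (-1.26 ± 0.093). Both fell under every scaling used. With mitochondrially encoded mRNA as the scale, SLC3A2 changed by -0.77 in resistant and -0.14 in parental cells.

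The 6 cytosolic aminoacyl-tRNA synthetases, which load amino acids onto tRNA, moved in different directions with dBET6. AARS and CARS changed most in resistant cells, and CARS, WARS and AARS in parental cells. AARS (alanine) had 117 and 131 FPKM with dBET6, against 69.9 and 67.4 FPKM with DMSO in resistant cells (0.85 ± 0.092), and 49.5 and 42.7 FPKM, against 63.9 and 60.8 FPKM, in parental cells (-0.40 ± 0.092), a rise in one line and a fall in the other. CARS (cysteine) had 12.3 and 9.74 FPKM with dBET6, against 21.8 and 22.1 FPKM with DMSO in resistant cells (-0.74 ± 0.094), and 12.6 and 11.5 FPKM, against 24.3 and 24.5 FPKM, in parental cells (-0.68 ± 0.091). CARS thus fell in both lines. For GARS (glycine), WARS (tryptophan), SARS (serine) and MARS (methionine) the log2 fold changes lay between 0.12 and 0.29 in resistant cells, where GARS, WARS and MARS rose, and between -0.19 and 0.44 in parental cells, where WARS rose and SARS fell. On log2(FPKM + 1) WARS did not pass in resistant cells (0.056, adjusted p = 0.589) nor SARS in parental cells (-0.14, adjusted p = 0.201), where the libraries overlapped in both cases, and MARS passed as higher in parental cells (0.24, adjusted p = 0.0394), which it did not on counts (-0.037). GARS had 81.9 and 88.5 FPKM with dBET6 in resistant and 72.9 and 76.2 FPKM in parental cells, against 69.6 and 65.8 FPKM and 74.4 and 73.6 FPKM with DMSO. WARS had 76.4 and 92.6 FPKM with dBET6 in resistant and 111 and 112 FPKM in parental cells, against 84.1 and 77.8 FPKM and 93.7 and 93.2 FPKM with DMSO. SARS had 108 and 103 FPKM with dBET6 in resistant and 83.5 and 71.4 FPKM in parental cells, against 88.7 and 86.0 FPKM and 87.7 and 82.3 FPKM with DMSO. With either of these other scales, total counts or mitochondrially encoded mRNA, all 6 were lower with dBET6 in both lines. MARS had 73.4 and 81.4 FPKM with dBET6 in resistant and 77.2 and 65.4 FPKM in parental cells, against 60.3 and 60.6 FPKM and 58.3 and 61.5 FPKM with DMSO.

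**Figure D3:**
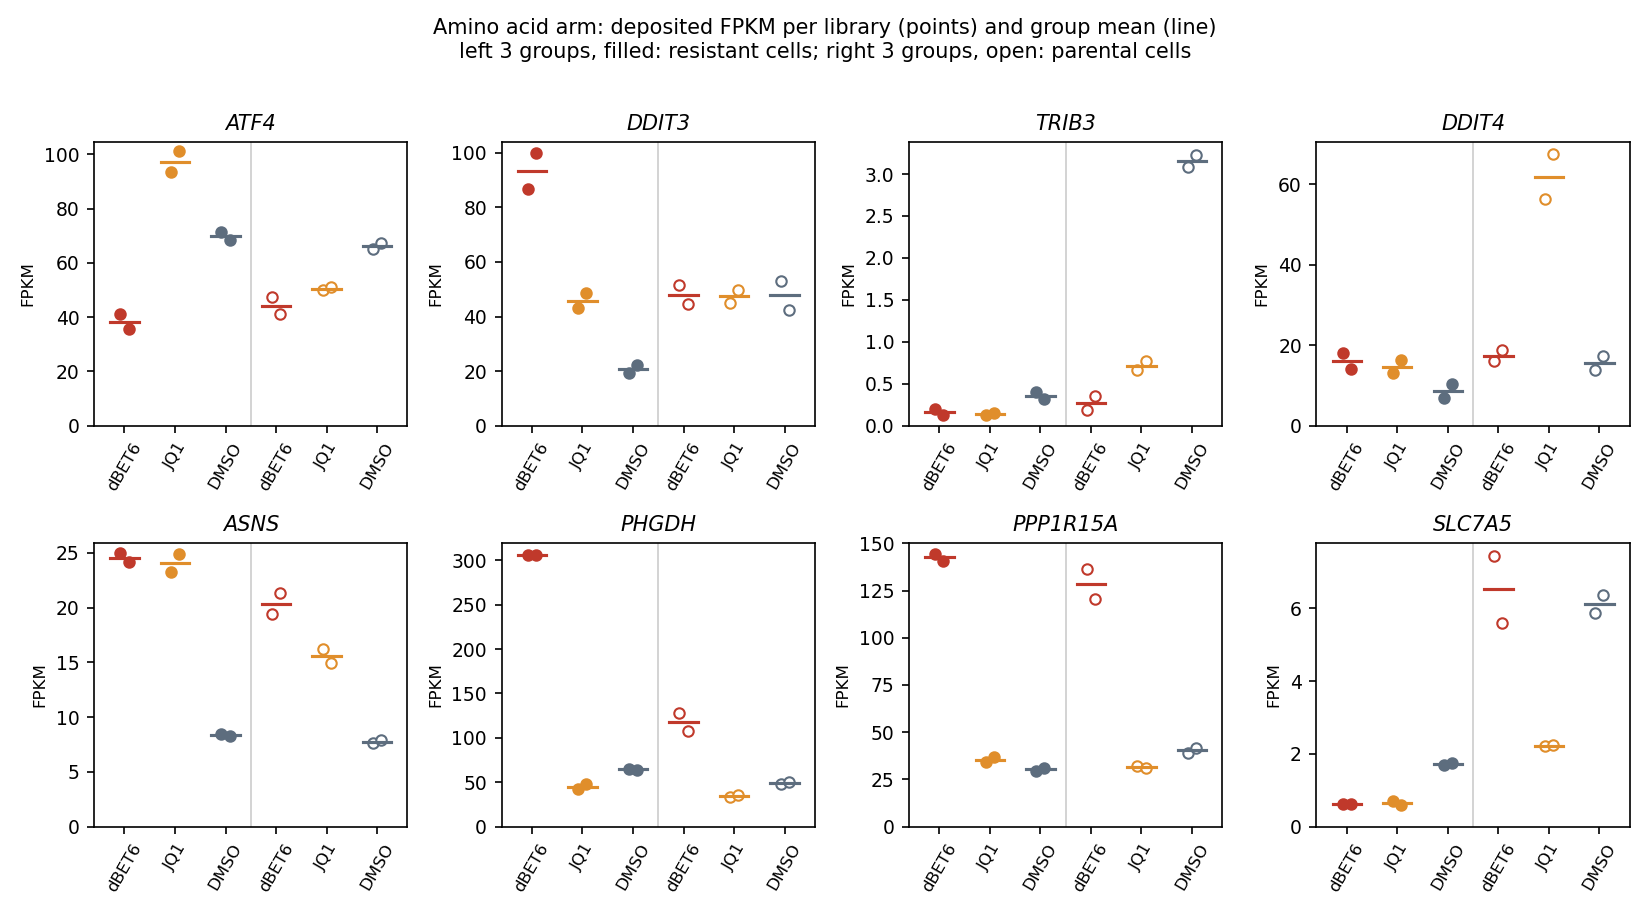
Deposited FPKM of 8 genes of the amino acid arm in each library (points) with the mean of each group of 2 (lines), resistant cells filled on the left and parental cells open on the right, each in the order dBET6, JQ1, DMSO. DDIT3 stands at 86.6 and 99.8 FPKM in resistant dBET6 libraries and 19.4 and 22.2 FPKM in resistant DMSO libraries, and DDIT4 is highest in parental JQ1 libraries (56.3 and 67.5 FPKM). The FPKM are the authors' and hold a factor per library.

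With JQ1, ASNS and DDIT4 of the amino acid arm rose in both lines, SLC7A1, SLC7A5 and TRIB3 fell in both, and ATF4 moved in opposite directions. In resistant cells 12 of 24 genes rose and 6 fell, and in parental cells 3 rose and 11 fell, beside the shares of all genes given above for JQ1. The median log2 fold change was 0.20 in resistant and -0.12 in parental cells. With total counts as the scale, 8 rose and 9 fell in resistant cells and 3 rose and 12 fell in parental cells, and scaled to mitochondrially encoded mRNA 2 rose and 10 fell in resistant and 2 rose and 12 fell in parental cells, so that the balance in resistant cells turned. DDIT4 then no longer passed in resistant cells (0.19, adjusted p = 0.473). ATF4 had 93.6 and 101 FPKM with JQ1, against 71.4 and 68.4 FPKM with DMSO in resistant cells (0.52 ± 0.088, adjusted p = 2.35e-05), where every JQ1 library lay above every DMSO library. In parental cells it had 50.1 and 51.0 FPKM with JQ1, against 65.1 and 67.2 FPKM with DMSO (-0.32 ± 0.089, adjusted p = 0.00427), below both DMSO libraries. On the scale of mitochondrially encoded mRNA the ATF4 change in resistant cells was -0.063.

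ASNS rose in both lines, to 23.3 and 24.9 FPKM with JQ1, against 8.49 and 8.25 FPKM with DMSO in resistant cells (1.51 ± 0.10, adjusted p = 3.13e-12), and to 16.2 and 15 FPKM, against 7.63 and 7.88 FPKM, in parental cells (0.88 ± 0.10). DDIT3 had 43.2 and 48.5 FPKM with JQ1, against 19.4 and 22.2 FPKM with DMSO in resistant cells (1.19 ± 0.11, adjusted p = 1.55e-09), and 45.1 and 49.7 FPKM, against 52.9 and 42.5 FPKM, in parental cells, where the libraries overlapped (0.038 ± 0.11, adjusted p = 0.802, interval -0.18 to 0.26). DDIT4 had 56.3 and 67.5 FPKM with JQ1, against 13.8 and 17.2 FPKM with DMSO in parental cells (1.96 ± 0.17, adjusted p = 1.78e-06), and 13.1 and 16.3 FPKM, against 6.93 and 10.3 FPKM, in resistant cells (0.75 ± 0.17). ASNS and DDIT4 thus rose in both lines, and DDIT3 in resistant cells. SLC7A5 fell to 0.702 and 0.592 FPKM with JQ1, against 1.69 and 1.75 FPKM with DMSO in resistant cells (-1.42 ± 0.14, adjusted p = 5.86e-09), and to 2.21 and 2.23 FPKM, against 5.88 and 6.37 FPKM, in parental cells (-1.48 ± 0.12, adjusted p = 8.24e-11). SLC7A1 fell to 12.8 and 10.4 FPKM with JQ1, against 19.7 and 16.9 FPKM with DMSO in resistant cells (-0.78 ± 0.080), and to 13.6 and 14.2 FPKM, against 31.5 and 26 FPKM, in parental cells (-1.0 ± 0.080, adjusted p = 4.78e-11). TRIB3 fell to 0.129 and 0.147 FPKM with JQ1, against 0.400 and 0.312 FPKM with DMSO in resistant cells (-1.27 ± 0.30, adjusted p = 0.00103), and to 0.659 and 0.773 FPKM, against 3.09 and 3.22 FPKM, in parental cells (-2.01 ± 0.20, adjusted p = 3.34e-09). The JQ1 and DMSO libraries of these 3 genes did not overlap in either line.

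Opposite directions past the threshold were seen for CEBPB and PPP1R15A besides ATF4. CEBPB had 120.5 and 119 FPKM with JQ1, against 167 and 177 FPKM with DMSO in resistant cells (-0.52 ± 0.11), and 159.8 and 174 FPKM, against 107 and 139 FPKM, in parental cells (0.43 ± 0.11). PPP1R15A had 34.3 and 36.6 FPKM with JQ1, against 29.6 and 30.9 FPKM with DMSO in resistant cells (0.25 ± 0.088), and 32.0 and 31 FPKM, against 39.0 and 41.9 FPKM, in parental cells (-0.38 ± 0.088). The groups did not overlap for either gene. The rise of PPP1R15A in resistant cells did not pass on log2(FPKM + 1) (0.22, adjusted p = 0.0556) or scaled to total counts (0.054, adjusted p = 0.60) and turned scaled to mitochondrially encoded mRNA (-0.33), under which the rise of CEBPB in parental cells did not pass either (0.12, adjusted p = 0.683). PHGDH and PSPH fell in both lines with JQ1 (-0.51 ± 0.092 and -0.33 ± 0.11 in resistant, -0.51 ± 0.093 and -0.30 ± 0.10 in parental cells). The synthetases CARS, GARS, AARS and SARS rose in resistant cells (0.37 ± 0.087, 0.42 ± 0.084, 0.34 ± 0.091 and 0.54 ± 0.085), as did PSAT1, MTHFD2 and SLC3A2 (0.43 ± 0.099, 0.58 ± 0.090 and 0.27 ± 0.082). None of these 7 passed in parental cells, where the values were 0.099, 0.053, 0.15, 0.20, 0.14, 0.17 and -0.040, and where SHMT2 and MARS fell (-0.47 ± 0.086 and -0.49 ± 0.087). Scaled to mitochondrially encoded mRNA, the same 7 lay below 0 in resistant cells (-0.30 to -0.011), and none passed. With total counts AARS, CARS and SLC3A2 did not pass there (adjusted p = 0.124, 0.0681 and 0.354). CARS did not pass on log2(FPKM + 1) either (0.25, adjusted p = 0.0907). SLC1A5 and WARS did not pass in either line (0.16 and -0.11 in resistant, 0.072 and -0.20 in parental cells). CHAC1 and VLDLR fell in parental cells (-1.0 ± 0.29 and -0.86 ± 0.14), beside -0.21 ± 0.30 (adjusted p = 0.611) and -0.12 ± 0.15 (adjusted p = 0.574) in resistant cells.

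Without compound, several ATF4 targets were lower in the resistant than in the parental line, while ATF4 mRNA did not pass. In DMSO 4 of 24 genes of the amino acid arm were higher and 11 lower in resistant cells, and 7 of 16 of the endoplasmic reticulum arm were higher and 1 lower, where 17.4% and 21.2% of all genes were. TRIB3 had 0.400 and 0.312 FPKM in resistant and 3.09 and 3.22 FPKM in parental cells (-3.08 ± 0.21, adjusted p = 6.74e-12). SLC7A5 had 1.69 and 1.75 FPKM in resistant and 5.88 and 6.37 FPKM in parental cells (-1.83 ± 0.12, adjusted p = 2.66e-12). VLDLR had 1.94 and 1.71 FPKM in resistant and 5.15 and 5.91 FPKM in parental cells (-1.43 ± 0.14, adjusted p = 5.37e-09). The lines did not overlap for any of these, nor for DDIT3, which had 19.4 and 22.2 FPKM in resistant and 52.9 and 42.5 FPKM in parental cells (-1.18 ± 0.11, adjusted p = 2.16e-09). ATF4 itself had 71.4 and 68.4 FPKM in resistant and 65.1 and 67.2 FPKM in parental cells (0.090 ± 0.088, adjusted p = 0.449, interval -0.091 to 0.27). DDIT4, SHMT2, PSPH, SLC7A1, PPP1R15A, SLC3A2 and WARS were also lower (-0.87 to -0.26), and CEBPB, PHGDH, PSAT1 and SLC1A5 were higher (0.30 to 0.46). In the endoplasmic reticulum arm, HERPUD1 had 27.9 and 32.4 FPKM in resistant and 15.8 and 18.0 FPKM in parental cells (0.72 ± 0.086, adjusted p = 1.13e-07), and EDEM1 had 13.1 and 13.0 FPKM in resistant and 23.3 and 20.9 FPKM in parental cells (-0.46 ± 0.082, adjusted p = 5.73e-05). ERN1 was higher on counts (0.59 ± 0.11, adjusted p = 8.46e-05) but not on log2(FPKM + 1) (0.18, adjusted p = 0.371), with overlapping levels of 2.70 and 3.26 FPKM in resistant and 2.72 and 2.32 FPKM in parental cells. DNAJB9 was higher (0.47 ± 0.14, adjusted p = 0.00673), with overlapping FPKM, and it no longer passed without the second resistant DMSO library (0.43, adjusted p = 0.0775). HSPA5 and XBP1 were 0.011 ± 0.085 (adjusted p = 0.943) and 0.17 ± 0.098 (adjusted p = 0.190), and EIF2AK3, DNAJC3, SEL1L and CALR were higher (0.41, 0.41, 0.37 and 0.32). On log2(FPKM + 1), HERPUD1 and CALR alone of the 16 passed as higher, and EIF2AK3, DNAJC3, SEL1L and DNAJB9 did not (adjusted p = 0.142, 0.124, 0.177 and 0.428). Scaled to mitochondrially encoded mRNA, 0 of the 40 passed as higher in the resistant line.

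The compounds were compared at the same dose and time in 2 pairs, 1 in each line. They share a BET-binding moiety and differ in the cereblon ligand that dBET6 carries. In resistant cells 10 genes of the endoplasmic reticulum arm were higher and 6 lower with dBET6 than with JQ1, and 9 of the amino acid arm were higher and 11 lower (35.4% and 38.8% of all genes). In parental cells 10 and 3 of the endoplasmic reticulum arm and 8 and 13 of the amino acid arm were higher and lower (36.2% and 38.4% of all genes). HSPA5 had 500.4 and 537 FPKM with dBET6 and 163 and 178 FPKM with JQ1 in resistant cells (1.54 ± 0.087, adjusted p = 4.59e-15), and 700.4 and 648 FPKM with dBET6 and 162 and 181 FPKM with JQ1 in parental cells (1.98 ± 0.088, adjusted p = 4.92e-17). HSP90B1, PDIA6 and CALR were higher with dBET6 by 1.34 ± 0.10, 1.47 ± 0.099 and 1.31 ± 0.087 in resistant cells and by 1.61 ± 0.10, 1.14 ± 0.099 and 1.05 ± 0.086 in parental cells, and HERPUD1 by 0.68 ± 0.086 and 1.67 ± 0.086. With mitochondrially encoded mRNA as the scale these 4 and HSPA5 changed by -0.14, -0.026, -0.18, -0.80 and 0.048 in resistant cells. In parental cells they changed by 0.12, -0.35, -0.43, 0.20 and 0.50 on that scale. There CALR passed as lower (adjusted p = 0.0475) and HSPA5 as higher (adjusted p = 0.0189). HSP90B1, PDIA6 and HERPUD1 did not pass there (adjusted p = 0.581, 0.106 and 0.374).

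PHGDH separated the compounds most in resistant cells, with 306 and 306 FPKM with dBET6 and 42.2 and 48.0 FPKM with JQ1 (2.77 ± 0.097, adjusted p = 3.27e-19). PPP1R15A separated them most in parental cells, with 136 and 120.4 FPKM with dBET6 and 32.0 and 31 FPKM with JQ1 (2.04 ± 0.090, adjusted p = 4.47e-17, and 1.99 ± 0.090 in resistant cells). The groups were far apart for both genes. SLC1A5 had 15.6 and 15.8 FPKM with dBET6 and 82.6 and 88.1 FPKM with JQ1 in resistant cells (-2.52 ± 0.099, adjusted p = 3.19e-18), and CHAC1 was lower with dBET6 (-1.78 ± 0.46). In parental cells VLDLR, TRIB3 and DDIT4 were lower with dBET6 than with JQ1 (-1.98 ± 0.19, -1.93 ± 0.31 and -1.84 ± 0.17). ATF4 was lower with dBET6 than with JQ1 in resistant cells (-1.41 ± 0.094, adjusted p = 1.43e-13). In parental cells the difference was -0.26 ± 0.092 (adjusted p = 0.0139), which ended without the second dBET6 library (-0.18, adjusted p = 0.108), was -0.41 without the first, and did not pass in the fit on only the libraries compared (-0.19, adjusted p = 0.105). With TMM, ASNS did not pass between the compounds in resistant cells (-0.16 ± 0.10, adjusted p = 0.176, 95% interval -0.37 to 0.057). Nor did it in parental cells (0.14 ± 0.10, adjusted p = 0.227, -0.074 to 0.35). Scaled to total counts, ASNS passed as lower with dBET6 in both lines (-1.04 in resistant, -0.38 in parental cells). Scaled to mitochondrially encoded mRNA it did so too (-1.65 and -1.33). On log2(FPKM + 1) it passed as higher with dBET6 in parental cells (0.37, adjusted p = 0.00324) and not in resistant cells (0.028, adjusted p = 0.779). With TMM, DDIT3 differed in resistant cells (0.98 ± 0.11, adjusted p = 5.82e-09) and not past the threshold in parental cells (0.016 ± 0.11, adjusted p = 0.898, -0.21 to 0.24). Scaled to total counts, DDIT3 differed by 0.098 (adjusted p = 0.415) in resistant and -0.50 (adjusted p = 3.04e-04) in parental cells. Scaled to mitochondrially encoded mRNA, it was lower with dBET6 in both lines (-0.51, adjusted p = 0.0227 and -1.47, adjusted p = 2.75e-11). XBP1 differed in resistant cells (-1.12 ± 0.12, adjusted p = 4.34e-09), while in parental cells it was -0.26 ± 0.12 (adjusted p = 0.0598), interval -0.51 to -0.0060, and 0.067 (adjusted p = 0.784) on log2(FPKM + 1). A p that misses the threshold does not show that the compounds act alike.

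The response itself differed between the lines for 11 of the 40 genes with JQ1 and 21 with dBET6, by the interaction term of the same fit. With JQ1, 6 genes of the amino acid arm had a higher and 2 a lower response in resistant cells, and in the endoplasmic reticulum arm 1 and 2 (3.62% and 2.88% of all genes). With dBET6 these counts were 8 and 4 in the amino acid arm and 3 and 6 in the endoplasmic reticulum arm (13.7% and 14.2% of all genes). The difference is the log2 fold change in resistant minus that in parental cells, so that the DMSO libraries of each line enter both.

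For JQ1, ATF4 differed by 0.83 ± 0.13 (adjusted p = 7.27e-05), from a rise in resistant and a fall in parental cells. DDIT3 differed by 1.15 ± 0.15 (adjusted p = 1.76e-05). The DDIT3 levels of the lines lay close together with JQ1, 43.2 and 48.5 FPKM in resistant and 45.1 and 49.7 FPKM in parental cells, and apart with DMSO. DDIT4 had a smaller response in resistant cells (-1.21 ± 0.24, adjusted p = 0.0130), as had CEBPB (-0.95 ± 0.16, adjusted p = 0.00102), and XBP1 fell less there (0.66 ± 0.15, adjusted p = 0.00517). On log2(FPKM + 1) the differences of XBP1 and DDIT4 did not pass (0.71, adjusted p = 0.282 and -1.21, adjusted p = 0.0804), and scaled to mitochondrially encoded mRNA those of ATF4, DDIT3 and XBP1 did not (0.56, 0.87 and 0.39, adjusted p = 0.385, 0.119 and 0.616). SEL1L and HERPUD1 passed narrowly (-0.41 ± 0.12, adjusted p = 0.0295 and -0.40 ± 0.12, adjusted p = 0.0438) and lost their calls when any 1 of 7 libraries (SEL1L) or any 1 of 8 (HERPUD1) was left out. HSPA5 differed by 0.030 ± 0.12 (adjusted p = 0.938). ASNS, PPP1R15A, VLDLR and MARS also had higher responses in resistant cells (0.63 ± 0.15, 0.63 ± 0.12, 0.75 ± 0.21 and 0.43 ± 0.12). Scaled to mitochondrially encoded mRNA none of these genes passed (0.35, 0.36, 0.48 and 0.15, adjusted p = 0.663, 0.606, 0.547 and 0.863). On log2(FPKM + 1) ASNS, VLDLR and MARS did not pass (0.50, 0.55 and 0.36, adjusted p = 0.0817, 0.312 and 0.231). VLDLR did not pass with total counts either (0.67, adjusted p = 0.0699).

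For dBET6, DDIT3 differed by 2.12 ± 0.16 (adjusted p = 2.14e-10) and TRIB3 by 2.33 ± 0.60 (adjusted p = 0.00424). TRIB3 fell less in resistant cells, whose DMSO level was already low, and its difference did not pass without the second resistant dBET6 library (2.24, adjusted p = 0.0762). VLDLR also fell less there (1.82 ± 0.27, adjusted p = 1.35e-05), and SLC7A5 had a lower response there (-1.60 ± 0.21, adjusted p = 2.13e-06). AARS, PHGDH and PPP1R15A had higher responses in resistant cells (1.25 ± 0.13, 0.96 ± 0.13 and 0.58 ± 0.12), and SLC1A5 and MTHFD2 lower ones (-1.09 ± 0.13 and -0.69 ± 0.14). With total counts or mitochondrially encoded mRNA as the scale, PPP1R15A did not pass (0.14 and 0.29, adjusted p = 0.298 and 0.534). PHGDH did not pass on the mitochondrial scale (0.67, adjusted p = 0.0909), nor MTHFD2 on log2(FPKM + 1) (-0.30, adjusted p = 0.207). In the endoplasmic reticulum arm the rise of HERPUD1 was smaller in resistant cells (-1.38 ± 0.12, adjusted p = 3.19e-09) and that of ERN1 larger (0.87 ± 0.15, adjusted p = 8.83e-05), which did not pass scaled to mitochondrially encoded mRNA (0.57, adjusted p = 0.218). ATF6 and DNAJC3 fell more there (-0.69 ± 0.14, adjusted p = 4.15e-04 and -0.66 ± 0.14, adjusted p = 6.45e-04), with DNAJC3 just missing the threshold on log2(FPKM + 1) (-0.54, adjusted p = 0.0512). HSPA5 rose less in resistant cells (-0.41 ± 0.12, adjusted p = 0.0106), a difference that missed the threshold when any 1 of 4 libraries was left out (-0.35 to -0.41, adjusted p = 0.0508 to 0.0657). PDIA6 and PDIA4 rose more there (0.53 ± 0.14 and 0.31 ± 0.12). Their differences did not pass with total counts (0.091 and -0.13, adjusted p = 0.602 and 0.323) or mitochondrially encoded mRNA as the scale (0.23 and 0.017, adjusted p = 0.649 and 0.991). SEL1L and CANX had lower responses on counts (-0.58 ± 0.12 and -0.52 ± 0.12) but not on log2(FPKM + 1) (-0.18, adjusted p = 0.329 and -0.067, adjusted p = 0.768). ATF4 and XBP1 did not pass (-0.32 ± 0.13, adjusted p = 0.0673 and -0.20 ± 0.17, adjusted p = 0.410), but did with total counts as the scale (-0.76, adjusted p = 3.71e-05 and -0.64, adjusted p = 0.00343).

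**Figure D4:**
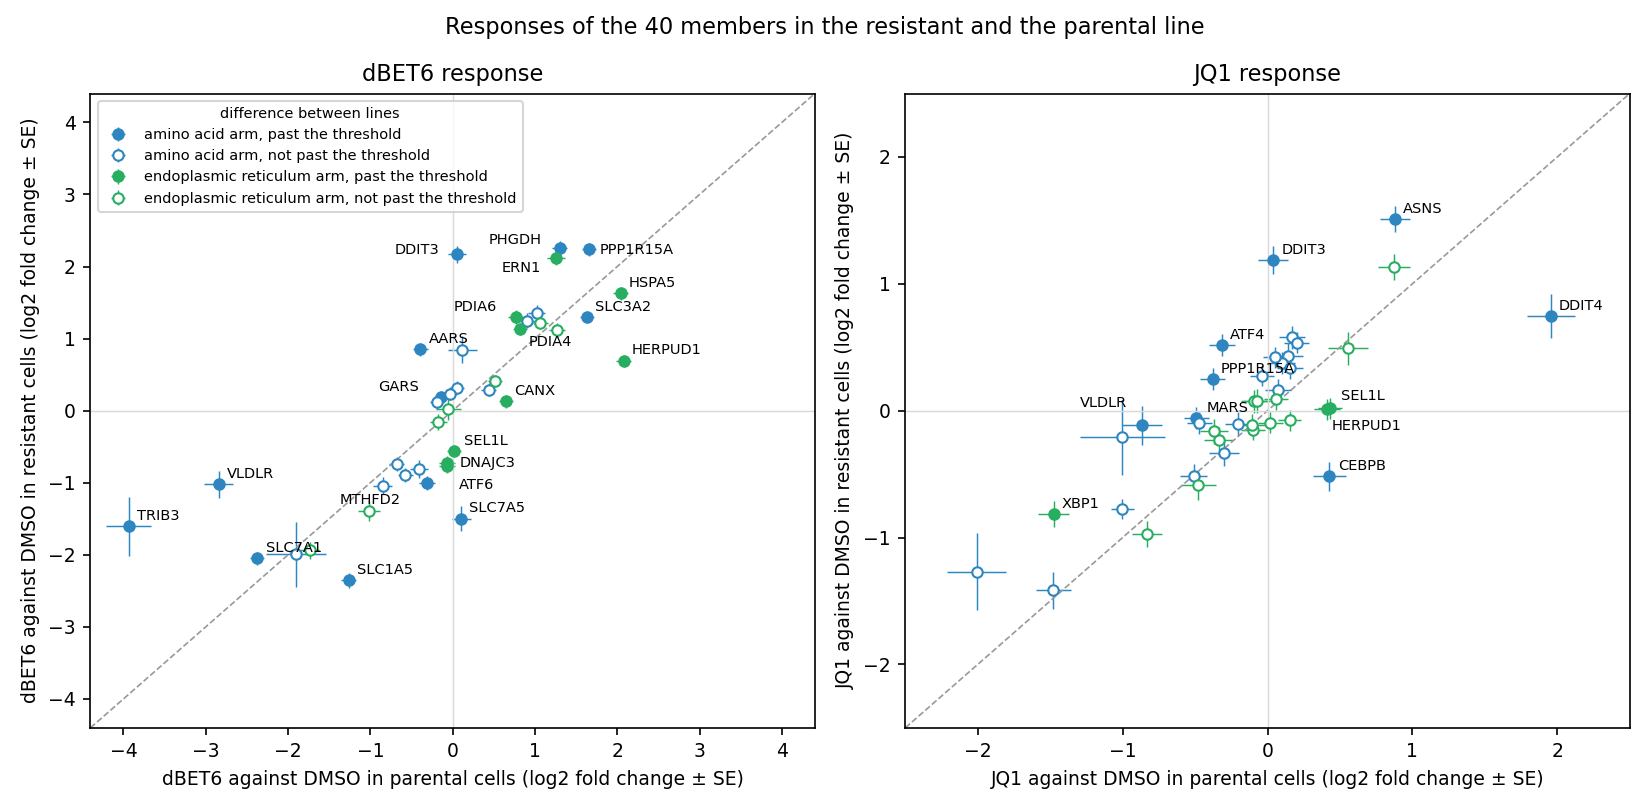
Log2 fold change ± SE of each of the 40 genes in resistant cells (vertical axis) against parental cells (horizontal axis), for dBET6 on the left and JQ1 on the right, with the amino acid arm in blue and the endoplasmic reticulum arm in green. Filled points have an adjusted p under 0.05 for the difference between the lines, and the dashed line marks equal responses. DDIT3 stands far above it in both panels (differences of 2.12 and 1.15), and HERPUD1 below it with dBET6 (-1.38).

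**Figure D5:**
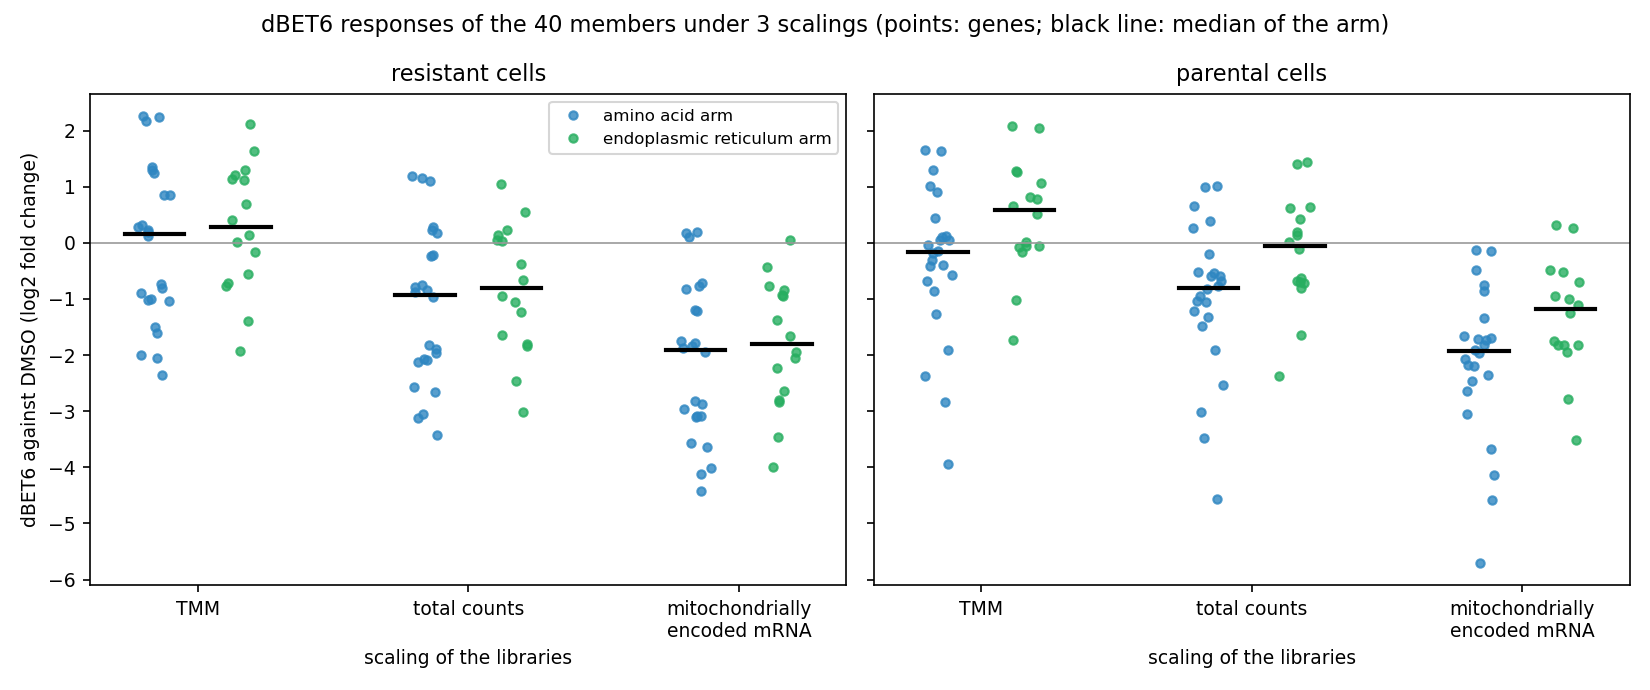
Log2 fold change with dBET6 against DMSO of the 40 genes under 3 scalings of the libraries, resistant cells on the left and parental cells on the right, with points for genes and black lines for the median of each arm. The median of the endoplasmic reticulum arm stands at 0.27 and 0.58 with TMM, at -0.80 and -0.051 with total counts and at -1.80 and -1.18 with mitochondrially encoded mRNA. Rescaling moves all genes of a line down together.

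Further genes of the pathway were counted from lists that hold none of the 40. Of 23 other ATF4 targets tested, 8 rose and 12 fell with dBET6 in resistant cells and 6 rose and 12 fell in parental cells (all genes: 35.7% and 39.5%, and 37% and 39.3%). ATF3, a stress-induced factor, changed by 4.28 ± 0.11 in resistant cells, and SLC7A11, the cystine carrier that pairs with SLC3A2, by 4.31 ± 0.14 in parental cells, while CEBPG, a dimer partner of ATF4, fell in both (-4.17 ± 0.15 and -3.89 ± 0.14). With JQ1 8 rose and 9 fell in resistant cells and 6 rose and 12 fell in parental cells (all genes: 20.8% and 23.1%, and 22.8% and 26.1%). NUPR1, a stress-induced chromatin protein, fell in both (-1.59 ± 0.11 and -1.55 ± 0.12), VEGFA, an angiogenic growth factor, fell in resistant cells (-1.20 ± 0.10) and ATF3 rose in parental cells (1.55 ± 0.11). Between the lines in DMSO, 8 were higher and 3 lower in resistant cells (17.4% and 21.2% of all genes), with SLC7A11 and the secreted hormone STC2 lower (-2.55 ± 0.19 and -1.37 ± 0.083).

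Counts of the lists that follow stand beside the same shares of all genes, 35.7% higher and 39.5% lower with dBET6 in resistant and 37% and 39.3% in parental cells, and 20.8% and 23.1%, and 22.8% and 26.1%, with JQ1. The 12 genes of eIF2, its exchange factor eIF2B, its kinases and phosphatases mostly fell with dBET6, 9 in resistant and 8 in parental cells, while 3 and 2 rose (median -1.16 and -1.08, against -0.062 and -0.015 over all genes). EIF2S2, the beta subunit of eIF2, changed by -1.91 ± 0.10 and -1.90 ± 0.097, EIF2B3 by -1.76 ± 0.14 in resistant cells and EIF2B5 by -1.95 ± 0.094 in parental cells. With JQ1 4 rose and 2 fell in resistant cells and 1 rose and 5 fell in parental cells. EIF2B3 rose in both (0.98 ± 0.10 and 0.57 ± 0.10) and EIF2AK4 (GCN2), the kinase that senses uncharged tRNA, fell in both (-0.49 ± 0.15 and -0.63 ± 0.15). Of 31 other endoplasmic reticulum genes, 14 rose and 14 fell with dBET6 in resistant cells and 16 rose and 12 fell in parental cells. P4HB, the main protein disulfide isomerase, changed by 2.16 ± 0.091 in resistant cells, DERL2, a degradation channel component, by -2.02 ± 0.12 and -2.06 ± 0.11, and SEC24D, a coat protein of export vesicles, by -1.79 ± 0.12 in parental cells. With JQ1 5 rose and 12 fell in resistant cells and 4 rose and 14 fell in parental cells. Of 8 other cytosolic synthetases, 2 rose and 5 fell with dBET6 in each line, with FARSA, a chain of the phenylalanine enzyme, at -1.86 ± 0.092 and -1.39 ± 0.089, and with JQ1 4 rose and 1 fell in resistant cells and 1 rose and 4 fell in parental cells. Of 17 mitochondrial synthetases, 4 rose and 10 fell with dBET6 in resistant cells and 4 rose and 11 fell in parental cells. YARS2 (tyrosine) changed by -3.08 ± 0.16 and -3.15 ± 0.15 and WARS2 (tryptophan) by -2.60 ± 0.20 and -2.19 ± 0.19 on the log2 scale. With JQ1 2 rose and 7 fell in each line.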

How the data were processed

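RNA of 12 libraries of U87 cells was analysed, 2 for each line and treatment. The deposited estimated counts and TPM values per transcript are kallisto's, per the file headers and the submitters' processing notes. The deposited FPKM values are 1 gene table for all libraries, made on genome build hg19 with kallisto and DESeq2 as listed in the submitters' processing notes, without the steps or versions. They carry a factor for each library, and their sum differs between libraries, so levels were also divided by that sum, an alternative chosen after seeing the data.

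Transcripts (196354 a file, 92.6% paired) were joined to genes through GENCODE 29, a newer annotation, covering 94.7% to 96.2% of the counts. The summed TPM, with a library factor removed, lay within 1% of the deposited FPKM for 82.0% of 10511 genes compared, and for MTHFD2, CANX and SLC3A2 at 0.775, 0.847 and 0.972 of it. Counts were summed per gene, rounded, filtered with filterByExpr (19093 genes kept), scaled by TMM and tested in 1 fit of all 12 libraries with edgeR 4.0.16 (R 4.3.3, quasi-likelihood, robust). Benjamini-Hochberg adjustment ran over all genes, with a threshold of 0.05. Alternatives used limma 3.58.1 on log2 FPKM (pseudocounts 1 and 0.1, mean FPKM of at least 1), DESeq2 1.42.0, other scalings and filters, a replicate block and leaving out each library. The test was checked on simulated counts in which few genes changed, up or down at random. That check does not cover libraries in which most genes change, as with dBET6.

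Named with full statistics were ATF4, DDIT3, HSPA5 and XBP1, and in each arm the 4 genes past the threshold with the largest change, and of further lists at most 2 genes. The genes, lists and motifs were chosen with earlier results of these data known. Unpaired transcripts were left out.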

Additional observations from a re-analysis of the deposited data

Results flagged for a closer look

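The responses of the genes below to a compound differed between the lines by a test of the difference itself, the interaction term of edgeR's fit (log2 fold change in resistant minus that in parental cells), and are flagged for that. For JQ1 the differences were 0.83 for ATF4, 1.15 for DDIT3, 0.66 for XBP1, -1.21 for DDIT4, -0.95 for CEBPB, -0.41 for SEL1L and -0.40 for HERPUD1. For dBET6 they were 2.12 for DDIT3, -0.41 for HSPA5, 2.33 for TRIB3, 1.82 for VLDLR, -1.60 for SLC7A5, -1.38 for HERPUD1, 0.87 for ERN1, -0.69 for ATF6 and -0.66 for DNAJC3. SEL1L and HERPUD1 with JQ1, and HSPA5 and TRIB3 with dBET6, lost their calls when single libraries were left out. Scaled to mitochondrially encoded mRNA, the JQ1 differences of ATF4, DDIT3, XBP1, SEL1L and HERPUD1 and the dBET6 differences of HSPA5 and ERN1 did not pass, and on log2(FPKM + 1) those of XBP1, DDIT4, SEL1L and HERPUD1 with JQ1 and DNAJC3 with dBET6 did not. DDIT4 also missed in the fit on only the libraries compared. DDIT3 stood out with both compounds, and its DMSO level was 20.8 ± 1.9 FPKM in resistant and 47.7 ± 7.3 FPKM in parental cells (SD, n = 2 each). With groups of 2 libraries no group could be searched for a library far from the others. What the differences come from was not tested.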

How the results depend on the processing

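Scaling was the choice that moved most. Scaled to mitochondrially encoded mRNA, the members passing as higher and lower were 3 and 24 for resistant JQ1, 0 and 36 for resistant dBET6, 0 and 36 for parental dBET6, 2 and 33 for dBET6 over JQ1 in resistant and 2 and 32 in parental cells, with 3 higher for parental JQ1, 0 higher for the lines in DMSO, 0 higher and 2 lower for the JQ1 difference between lines and 4 higher for the dBET6 difference. Under that scaling ATF4 (-0.063) and HSPA5 (-0.49) with JQ1 and HSPA5 (-0.44) with dBET6 turned in resistant cells, DDIT3 (-1.72) and HSP90B1 (-0.49) with dBET6 in parental cells, DDIT3 (-1.47) and PDIA6 (-0.35) for dBET6 over JQ1 in parental cells, and DDIT3 (-0.51), PDIA6 (-0.026), HSP90B1 (-0.14) and CALR (-0.18) for dBET6 over JQ1 in resistant cells. Turned means a change of sign only, and only gene results named with full statistics are listed. ATF4 with JQ1 did not pass under that scaling (adjusted p = 0.828). For dBET6 over JQ1, neither did PDIA6 in parental cells (adjusted p = 0.106) nor PDIA6, HSP90B1 and CALR in resistant cells (adjusted p = 0.914, 0.528 and 0.427). HSPA5 with JQ1 and DDIT3 in parental cells had not passed with TMM. Scaled to total counts, 9 were higher and 18 lower for resistant JQ1, 8 and 27 for resistant dBET6, 7 and 28 for dBET6 over JQ1 in resistant cells, 26 lower for parental dBET6, and 6 higher and 21 lower for the dBET6 difference, and DDIT3 turned with dBET6 in parental cells against DMSO (-0.59) and against JQ1 (-0.50). With a mean of at least 10 CPM, which keeps fewer genes, 25 were higher and 7 lower for parental dBET6, and 10 and 6 were lower for dBET6 over JQ1 in resistant and parental cells, where ATF4 turned in parental cells (0.063). limma on log2 FPKM with pseudocount 1 gave 9 lower for parental dBET6, 5 higher for the lines in DMSO, 11 and 9 lower for dBET6 over JQ1 in resistant and parental cells, 3 higher and 1 lower for the JQ1 difference and 6 lower for the dBET6 difference, and pseudocount 0.1 gave the same counts. Without a filter beyond 1 count, 2 were lower for the JQ1 difference. The cause of these moves was not tested.

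Leaving out each library in turn gave 4 to 12 members higher and 2 to 4 lower for the JQ1 difference and 7 to 14 higher for the dBET6 difference, and moved no other count by over 1.5 times. Of 2086 alternative values of the 92 named gene results, 1984 kept their direction and their side of the threshold, 68 lost the threshold, 20 gained it and 14 turned. Of the 1984, 92 came from counts rebuilt from TPM and effective lengths, which equal the main counts by construction and could not differ. No paired main test was made, since the replicate differences of the groups correlated at only -0.058 to 0.061 over 15 pairs of groups. The replicate block gave 19 members higher and 16 lower for resistant dBET6 and moved no count by over 1.5 times, but HERPUD1 lost its JQ1 difference under it (-0.40, adjusted p = 0.0624). The longer amino acid response core was present in 2 members of the amino acid arm and 0 of the endoplasmic reticulum arm. At 107 to 161 XBP1 counts in dBET6 libraries, depth limits its isoform share.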
